A study of Mus musculus with 4 samples.

Results

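Lung B cell singlets are the 190 barcodes of the lung single-cell library to which the authors gave the class B-cell and a passing quality flag. They made up 3.12% (95% exact Clopper-Pearson interval 2.70 to 3.59) of the 6084 lung singlets with counts, which the authors had divided into 13 classes. The library came from the dissociated whole lung of C57BL/6J mice, an inbred strain, and was prepared with version 3 of 10x Genomics' droplet chemistry, in which each transcript is tagged near its 3′ end with a unique molecular identifier (UMI) and counted once. A companion library held lung multiplets, which are clusters of cells that stayed attached and share a barcode, and the study asks which cell types such clusters contain. The labels give no age, sex, treatment or number of mice. Each group was 1 library, so nothing could be set against a spread between animals, no test was possible and no p-value was computed. All intervals cover counting error only.

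B cells are the lymphocytes that make antibody. Their antigen receptor is a membrane immunoglobulin built from heavy chains and either kappa or lambda light chains, and it signals through the attached pair CD79A and CD79B. A resting follicular B cell carries IgM and IgD together, recirculates between blood and lymphoid follicles, and presents antigen to CD4+ T cells on MHC class II. Plasma cells, the secreting end stage, lose most of these surface proteins and make the joining chain of polymeric IgM and IgA. In the lung, B cells are found in the vessels, the interstitium and airway-associated lymphoid tissue.

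The markers of B cells were present throughout the class. Cd79a, Cd79b and Ms4a1, which encodes CD20, were all present in 165 of the 190 B cell barcodes (86.8%, 81.2 to 91.3), 23 barcodes had 2 of the genes, 2 had 1 and 0 had none. Outside the class all 3 were found in 16 of 5894 singlets (0.271%), of which 6 were macrophages and 6 type II pneumocytes. The B cell barcodes were shallow, with a median of 3312 UMIs (2404 to 10316) and 1354 genes (1163 to 3521). That was the lowest median depth among the 11 classes of at least 50 barcodes, against 3459 UMIs in natural killer (NK) cells, 5039.5 in T cells and 8574 in macrophages. The median mitochondrial share was 4.57%, and ribosomal protein genes took 25.8% of UMIs, against 33.5% in T cells and 14.4% in NK cells. One of the B cell barcodes also occurred in the intestinal singlet library and 0 occurred in either multiplet library.

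Genes known from other cell types were also counted in the B cell barcodes. Sftpc, the surfactant protein C gene of type II pneumocytes, stood at 2355 CPM (UMIs summed over a class and scaled by that class's total) in B cells and at 1427 CPM in T cells. Ratios of other type II pneumocyte genes to Sftpc lay near those of other classes, with Napsa as an exception at 15.0 per 100 in B cells and 1.03 in type II pneumocytes. For every 100 Sftpc UMIs there were 11.1 Sftpa1 UMIs in B cells and 12.3 in type II pneumocytes. Lyz2 stood at 18.9 per 100 in B cells, 20.6 in T cells and 15.3 in type II pneumocytes. A doublet caller, Scrublet, marked 12 of the 190 B cell barcodes (6.32%), against 126 of all 6084 singlets (2.07%). The 12 were deeper than the others, with a median of 7308 UMIs against 3235, and 10 of them had all 3 B cell markers. They held 78.1% of the fibroblast list's UMIs, so that 8 fibroblast genes summed to 24284 CPM in the marked B cell barcodes and 949 CPM in the other 178. The marked barcodes were kept, and values without them are given where they move a result.

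The first comparison asks which genes stood highest in B cells relative to every other class. Of 3492 genes with at least 30 UMIs in B cells, 118 (3.38%) were at least 2-fold over the highest of the 10 other compared classes. Mesothelial cells, with 10 barcodes, and type I pneumocytes, with 6, were too few to compare. Macrophages were the next class for 42 of the 118 genes, NK cells for 17, T cells for 16 and endothelial cells for 15. In the macrophage class 6 of 283 barcodes had all 3 B cell markers, and their part in the macrophage levels was not tested. Since the classes were made from these same cells, each ratio is a description of the class and not a test of it.

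The receptor and its signal-transducing pair led the list. Igkc, the kappa constant gene, reached 8796 CPM (8582 to 9014), which was 130.4 times the level in macrophages (112 to 152). Each B cell barcode had between 0 and 124 Igkc UMIs with a median of 30, whereas 75.1% of the Igkc UMIs of the macrophage class lay in 5 barcodes. Cd79a, at 2310.1 CPM, was 121 times higher than in macrophages (91.5 to 164) and had 0 UMIs in T cells, which made it at least 1458-fold higher than there. Every B cell barcode had a Cd79a UMI, from 1 to 33 with a median of 8. Cd79b, at 1306 CPM, stood 40.9 times over type II pneumocytes, where 32.0 CPM were counted (46.7 times without the marked barcodes of both classes), and Ms4a1, at 859 CPM, stood 150.3 times over macrophages (90.4 to 270.2). On GRCm38, Cd79a lies at chr7:24897497-24901858, Cd79b at chr11:106311341-106314562, Ms4a1 at chr19:11249679-11266149 and Igkc at chr6:70726435-70726754.

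**Figure D1:**
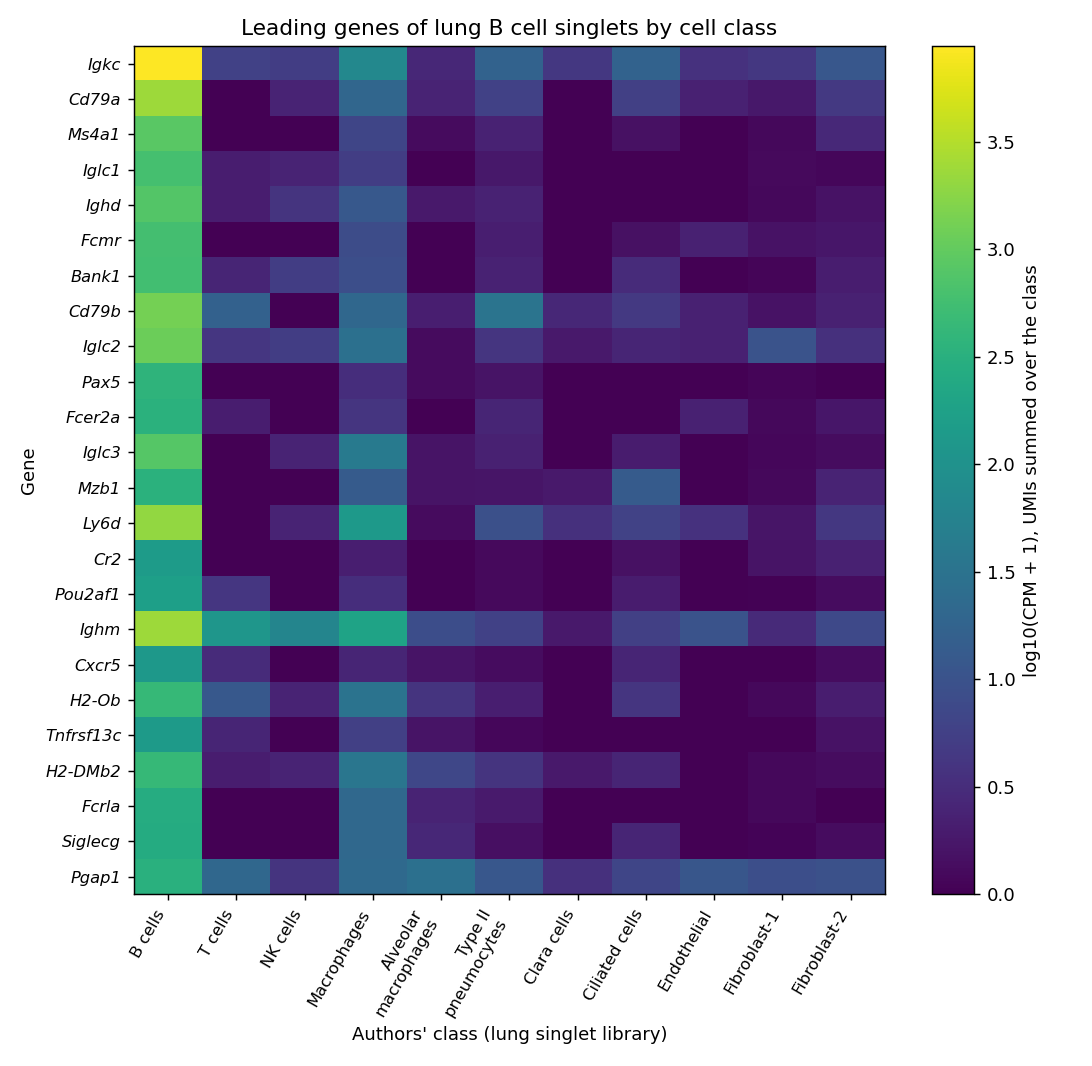
Level of 24 of the 25 leading genes (rows, in rank order) in each class of at least 50 lung singlets (columns), as log10 of CPM plus 1 from UMIs summed over the class, with 1 library and no error bars. The B cell column is the brightest in every row shown. Macrophages are the next class for most genes, and Ighm is also seen in T cells at 118 CPM and in macrophages at 196 CPM.

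The other leading genes were surface receptors and lineage factors of B cells. Fcmr, which encodes the receptor for the Fc part of IgM, stood at 582 CPM (80.3 times the macrophage level), Bank1, a B cell scaffold protein, at 561 CPM (70.1 times) and Fcer2a, the low affinity IgE receptor CD23, at 325 CPM (106 times). The transcription factor gene Pax5, which fixes B cell identity, stood at 362 CPM and 158 times the macrophage level (71.7 to 435). Cr2, which encodes the complement receptor CD21, stood at 143 CPM (111 times the level in fibroblast-2 cells) and Cxcr5, the receptor that leads B cells into follicles, at 127 CPM (59.9 times the level in T cells). Tnfrsf13c, the receptor for the survival factor BAFF, reached 142 CPM (31.0 times the macrophage level).

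Further leading genes had broader expression or smaller ratios. Ly6d, a surface protein of the B lineage, stood at 2013 CPM, 15.0 times its macrophage level of 134 CPM. Ighm stood 11.8 times and Ighd, the delta heavy chain gene, 69.2 times over macrophages. Mzb1, a chaperone of immunoglobulin assembly, was 26.4 times over ciliated cells, and Pou2af1, the co-activator of the octamer factors, 52.9 times over T cells. The inhibitory lectin gene Siglecg stood 12.8 times, the Fc receptor-like gene Fcrla 13.8 times, H2-Ob 14.5 times and H2-DMb2 12.4 times over macrophages. Pgap1, which acts on lipid anchors of surface proteins, was last of the 25 at 315 CPM and 11.4 times over alveolar macrophages. The lambda constant genes Iglc1, Iglc2 and Iglc3 complete the list.

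Shares of barcodes were compared after each barcode had been thinned to 2000 UMIs, a depth at which no barcode was lost. Cd79a was then found in 96.8% of B cell barcodes, Cd79b in 85.8%, Ms4a1 in 70.0%, Ighd in 70.5%, Pax5 in 57.9% and Fcer2a in 44.2%. For Cd79a the shares elsewhere were 0 of 334 in T cells, which allows up to 0.898% of barcodes with a UMI, and 2.47% in macrophages. Without thinning the B cell shares were 100% for Cd79a and 89.5% for Ms4a1, at a median of 3312 UMIs. Sftpc, by contrast, was found at the same depth in 96.8% of B cells, 91.3% of T cells and 98.3% of NK cells.

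Among 23 genes of the receptor complex and its signalling, 19 had the 30 UMIs needed to be counted and 9 were at least 2-fold over every other class, against 3.38% of all genes counted. Against T cells, 19 of 23 were at least 2-fold higher and 4 lower, where 7.86% of the 6512 genes counted were higher and 11.7% lower. Blnk, the adaptor that links the receptor to its downstream kinases, stood at 180.1 CPM in B cells and 1.06 CPM in T cells. The kinase gene Syk stood at 360.3 CPM against 1.58 CPM, and Btk, the kinase mutated in X-linked agammaglobulinaemia, at 103 CPM against 1.06 CPM. Syk and Btk were also found in macrophages, at 187 and 44.2 CPM. The inhibitory receptor gene Cd22 stood at 119.6 CPM with 0 UMIs in T cells, and the tetraspanin gene Cd37 at 865 CPM against 181 CPM. The T cell counterparts Zap70 and Lcp2 were scarce in B cells, with 1 UMI of Zap70 (69.2 CPM in T cells) and 2 of Lcp2 (126 CPM).

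Promoters are shown for an adaptor and a transcription factor of the 118 genes, because they hold the letters to which factors of the B lineage are known to bind. Each sequence gives the 250 bases before the RefSeq start on GRCm38.p6, 5′ to 3′ on the gene's minus strand, with the motif in capitals. The octamer, read by the POU2F proteins, is ATGCAAAT on either strand, and in Blnk (chr19:40994222-40994471) it lies on the opposite strand and starts at position -130 from the gene's start. The core read by EBF1 is CCCNNGGG, and in Spib (chr7:44532072-44532321) a pair of overlapping matches starts at position -65.
Blnk: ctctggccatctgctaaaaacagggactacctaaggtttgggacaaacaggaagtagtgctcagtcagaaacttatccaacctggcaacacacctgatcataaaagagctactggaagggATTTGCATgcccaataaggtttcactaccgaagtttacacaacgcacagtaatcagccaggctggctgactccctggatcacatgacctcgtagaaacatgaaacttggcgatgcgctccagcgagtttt
Spib: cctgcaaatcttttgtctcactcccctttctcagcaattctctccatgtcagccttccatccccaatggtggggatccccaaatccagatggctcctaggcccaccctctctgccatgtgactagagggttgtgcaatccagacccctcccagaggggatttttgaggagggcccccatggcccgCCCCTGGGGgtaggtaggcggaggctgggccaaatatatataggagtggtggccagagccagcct

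Neither motif, searched as exact letters, stood far from its share over all genes of the promoter table. Only 13 of the 25 leading genes were in that table. Of these 13, 0 had the octamer and 2 the EBF core. Of the 118 genes 87 were in the RefSeq promoter table, with windows of 300 bases from 250 before to 50 after each start, and a gene with several starts was counted once. The octamer was found in 1 of the 87 (1.15%), which is Blnk, and in 532 of 27025 genes in all (1.97%). The EBF core was found in 16 of the 87 (18.4%) and in 15.4% of all genes. In the 150 bases before the start the octamer was found in 1.15% of the 87 and 1.17% of all genes, and the EBF core in 11.5% and 8.90%. A match of letters is a description of the window and does not show that a factor bound there. A site with other letters was not counted, so these shares do not show how many promoters a factor can bind.

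Of 21 transcription factor genes of the B lineage 19 could be counted. Of these 9 were at least 2-fold over every other class, against 3.38% of all genes counted. Ebf1, the factor that works with Pax5 to set up the B cell programme, stood at 1767 CPM and had 1 to 20 UMIs in every barcode, with a median of 6. In fibroblast-2 cells Ebf1 stood at 231 CPM and in T cells at 0.528 CPM, a single UMI. Mef2c reached 1409 CPM in B cells, 167 times the level in T cells (102 to 293) and 5.41 times that in macrophages. Spib stood at 131 CPM and Bcl11a at 209 CPM, both with 0 UMIs in T and NK cells. Other factors were shared with another class. Pou2f2 stood at 425 CPM in B cells and 383 CPM in macrophages, and Ets1 at 877 CPM in B cells and 741 CPM in T cells. Klf2, which keeps lymphocytes quiescent and recirculating, stood at 2520.5 CPM, close to the 2366 CPM of endothelial cells. Irf8 was lower in B cells (267 CPM) than in NK cells (1341 CPM), and the plasma cell factor gene Prdm1 had 2 UMIs.

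UMIs of immunoglobulin genes were counted in each barcode, which does not show directly which receptor a cell carried. Together 32 immunoglobulin genes took 1.46% of B cell UMIs, with 0.130% to 5.45% per barcode and a median of 1.49%. A barcode was given an isotype where 1 heavy chain constant gene had at least 2 UMIs and 60% of the heavy chain UMIs, with Ighd counted apart. By this rule 184 of 190 barcodes were IgM (96.8%, 93.3 to 98.8), 0 were IgA, which allows up to 1.58% of barcodes, and 6 were not called. The IgG and IgE constant genes were not analysed here, so the rule could choose only between Ighm and Igha and says nothing of IgG or IgE. Ighd was found in 159 barcodes (83.7%), and Ighm and Ighd together in 157 (82.6%). Ighm had 0 to 36 UMIs per barcode with a median of 7, and Ighd 0 to 13 with a median of 2. The same rule called IgM in 32.9% of macrophages, 16.2% of T cells and 5.23% of NK cells, at median depths above that of B cells. Ighm and Ighd were found together in 2.83% of macrophages and 0.299% of T cells. Igha had 4 UMIs in the whole class, each in a different barcode.

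Light chains were called kappa or lambda where Igkc, or Iglc1, Iglc2 and Iglc3 together, had at least 3 UMIs and 80% of their sum. Kappa was called in 122 barcodes (64.2%, 57.0 to 71.0), lambda in 10 (5.26%, 2.55 to 9.47) and both in 58 (30.5%, 24.1 to 37.6), with 0 barcodes left without a light chain. In T cells the same rule called a light chain in 0 of 334 barcodes, which allows up to 0.898%. By the rule itself lambda barcodes hold mostly Iglc UMIs. They had 17 to 93 of these (median 36.5) and 8 Igkc UMIs in all, found in 2 of the 10. The lambda share of light chain UMIs ran from 80.8%, just over the limit, to 100%. The barcodes called both graded into the kappa barcodes. They had a median of 11 Iglc UMIs (3 to 39) beside 23 of Igkc (5 to 74), whereas kappa barcodes had 5 (0 to 20) beside 35 (4 to 124).

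Iglc UMIs were present in nearly every B cell barcode. They occurred in 182 of the 190 (95.8%), including 114 of the 122 called kappa, and in 4.50% of all other singlets. The member gene differed between the calls. Iglc1 gave 53.8% of the Iglc UMIs in lambda barcodes (49.1 to 58.4), 16.7% in those called both (14.1 to 19.5) and 8.79% in kappa barcodes (6.69 to 11.3). In kappa barcodes Iglc2 had 303 and Iglc3 268 UMIs, against 55 of Iglc1. Iglc2 and Iglc3 are near-identical copies, so the split of reads between them is uncertain. Of the 12 barcodes marked as doublets, 9 were called kappa, 1 lambda and 2 both. Variable segments were too sparse to resolve clones, with 111 UMIs of 24 segments in 71 B cell barcodes and 5 UMIs in all other singlets.

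**Figure D2:**
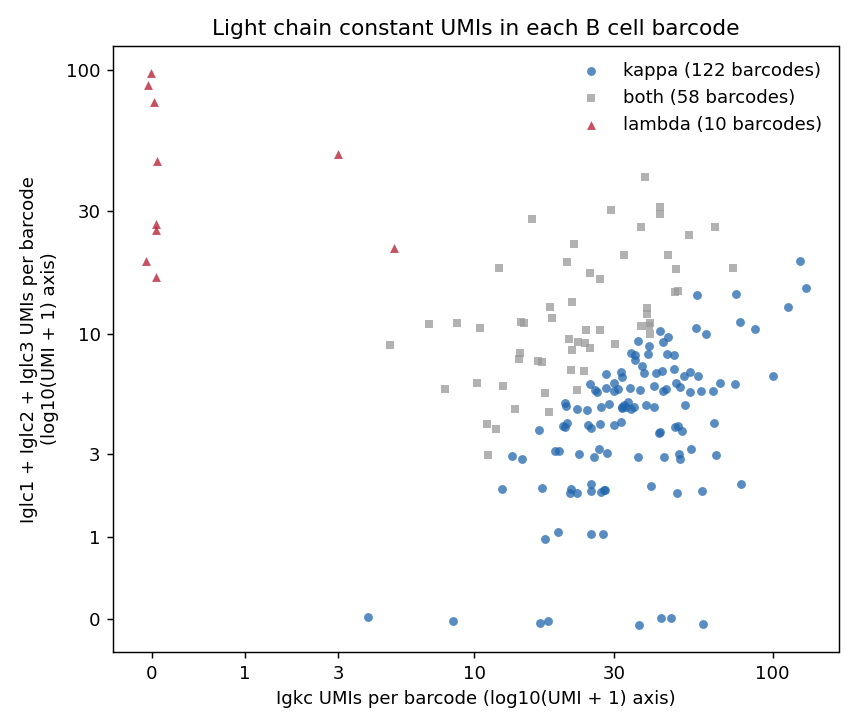
Igkc UMIs (x axis) against the sum of Iglc1, Iglc2 and Iglc3 UMIs (y axis) in each of the 190 B cell barcodes, on log10(UMI + 1) axes with a small random shift so that equal values do not hide each other. The 10 lambda barcodes (triangles) lie toward the left with 17 to 93 Iglc UMIs. The lambda barcode with 5 Igkc and 21 Iglc UMIs has the same Igkc count as a barcode called both (5 and 9). The 58 called both (squares) adjoin the 122 called kappa (circles) with no gap between them.

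MHC class II genes stood in B cells at a summed level near that of the macrophage class. That class also held genes of neutrophils (3324 CPM) and dendritic cells (1048 CPM), whose part in its class II level was not tested. The 12 genes of the list summed to 23363 CPM in B cells and 20018 CPM in macrophages, against 6372 in type II pneumocytes, 5751 in alveolar macrophages, 279 in T cells and 116 in NK cells. Each B cell barcode had 15 to 225 UMIs of the list, with a median of 87. All 12 were at least 2-fold higher in B cells than in T cells, as were 7.86% of all genes counted. Against macrophages 3 were higher and 3 lower at 2-fold, where 8.66% of 7658 genes were higher and 21.0% lower. Cd74, the invariant chain that guides class II molecules through the cell, stood at 11645 CPM against 8366 in macrophages (1.39 times, 1.36 to 1.43, or 1.44 times without the marked barcodes of both classes). The structural genes H2-Aa (1.18 times), H2-Ab1 (0.905) and H2-Eb1 (1.02) were near even. With each barcode weighted equally the ratios were higher, at 1.85 for Cd74, 1.62 for H2-Aa, 1.41 for H2-Eb1 and 1.26 for H2-Ab1, which turned its direction. With median ratio scaling H2-Eb1 turned to 0.982.

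The 3 class II genes higher than in macrophages were H2-Oa, H2-Ob and H2-DMb2, which take part in peptide loading, and the 3 lower were H2-DMb1, Ctss and Ifi30. H2-Oa and H2-Ob, the pair that restrains the peptide exchanger H2-DM, stood at 239 and 443 CPM in B cells and at 33.9 and 30.5 CPM in macrophages. H2-DMb2 was 12.4 times higher in B cells (9.80 to 15.9), whereas H2-DMb1 was lower, at 118 CPM against 331 CPM. These last genes are close copies, so reads may be divided between them with error. Among the enzymes that process antigen, Ctss stood at 424 CPM in B cells and 1271 CPM in macrophages, and Ifi30 at 326 against 657 CPM. Ciita, the master regulator of class II transcription, stood at 149 CPM against 89.6 CPM. In MHC class I 8 of 9 genes could be counted and 0 were at least 2-fold over every other class, against 3.38% of all genes counted. H2-K1 was lower in B cells (1228 CPM) than in NK cells (2845 CPM).

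**Figure D3:**
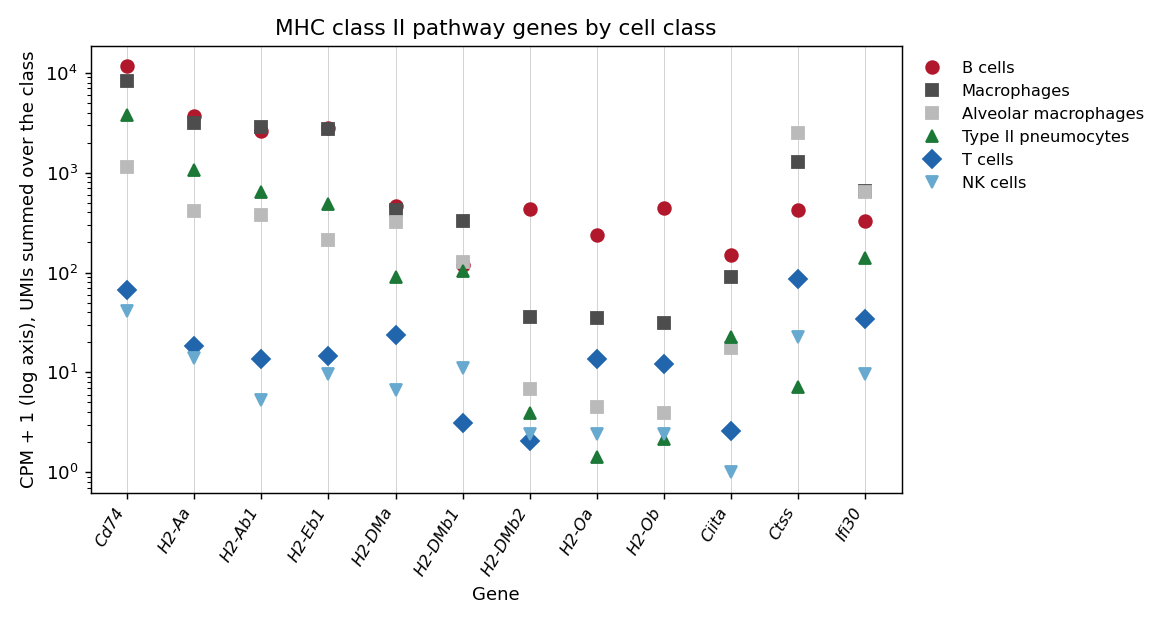
CPM plus 1 (log axis) of the 12 genes of the MHC class II list in B cells and 5 other classes, from UMIs summed over 1 library, with no error bars. B cells and macrophages lie together for Cd74, H2-Aa, H2-Ab1 and H2-Eb1, and B cells lie above every other class for H2-DMb2, H2-Oa and H2-Ob.

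Receptors for survival and help from T cells were mostly detected at low counts. Of 13 genes 10 could be counted and 2 were at least 2-fold over every other class, against 3.38% of all genes counted. They were Tnfrsf13c and Tnfrsf13b, the receptor TACI, at 133 CPM against 50.7 CPM in macrophages. Cd40, through which T cells stimulate B cells, stood at 61.9 CPM. Cd86, a co-stimulatory ligand, stood at 159.5 CPM and its relative Cd80 at 2.75 CPM, whereas macrophages had 107 and 37.3 CPM. Cd83, a surface protein of activated and maturing cells, stood at 521 CPM against 281 CPM in macrophages and 8.45 CPM in T cells. Cd69, an early activation marker that holds lymphocytes in tissue, stood at 631 CPM against 486 CPM in T cells. At 2000 UMIs per barcode Cd69 was found in 68.4% of B cells and 51.8% of T cells, and Cd83 in 61.1% and 0.599%.

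Of 10 Fc and innate receptor genes 8 could be counted. Of these Fcer2a, Fcmr, Fcrla and Fcrl1 were at least 2-fold over every other class, against 3.38% of all genes counted. Fcgr2b, the inhibitory IgG receptor, stood at 88.0 CPM in B cells and 135 CPM in macrophages. Ly86 and Cd180, which form a receptor related to TLR4, stood at 418 and 114 CPM in B cells and at 381 and 74.3 CPM in macrophages. Tlr7 had 7 UMIs and Tlr9 had 1, whereas Unc93b1, the chaperone of both, stood at 241 CPM.

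Homing genes were partly shared with T cells. Of 15 homing and adhesion genes 10 could be counted. Of these 2, Cxcr5 and Ccr7, were at least 2-fold over every other class, against 3.38% of all genes counted. Ccr7, the receptor for lymph node entry, stood at 953 CPM against 381 CPM in T cells (2.50 times, 2.25 to 2.78) and was found in 75.8% of B cells and 40.4% of T cells at equal depth. Cxcr4 stood at 441 CPM against 128 CPM in T cells. The egress receptor gene S1pr1 (204 CPM against 226 CPM in T cells) and the oxysterol receptor gene Gpr183 (444 against 260.4 CPM) were within 2-fold of T cells. Lower in B cells than in T cells were Itgb7 (77.0 against 239.8 CPM), Itgal (20.6 against 106 CPM) and Cd44 (42.6 against 115 CPM), and Cxcr3 had 0 UMIs in B cells.

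**Figure D4:**
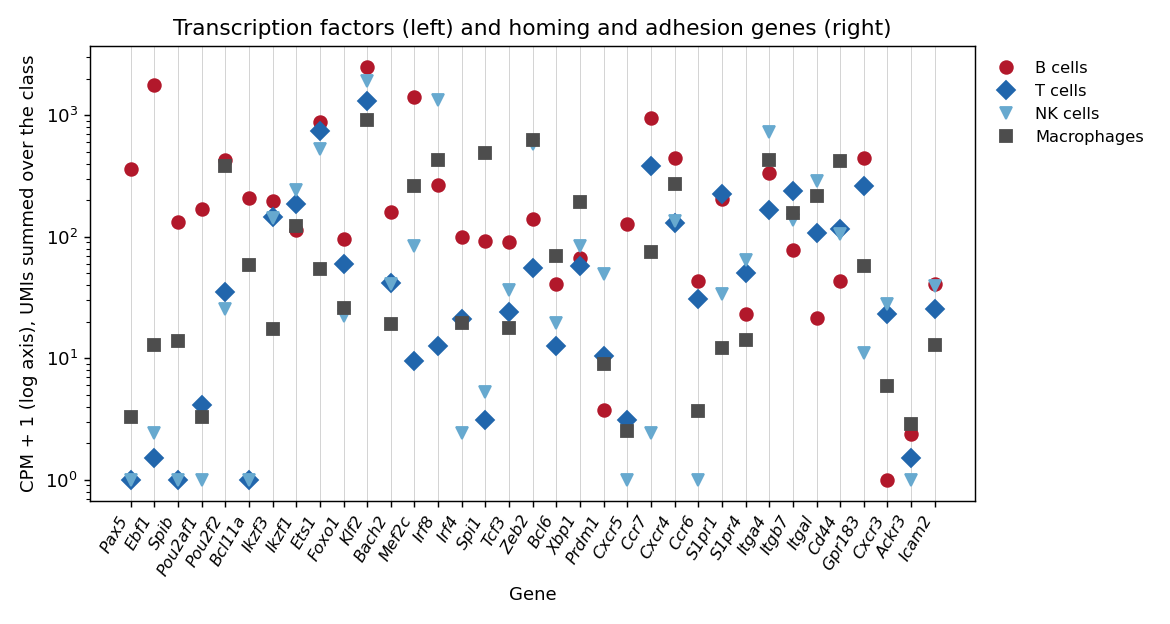
CPM plus 1 (log axis) of 21 transcription factor genes (left, Pax5 to Prdm1) and 14 of the 15 homing and adhesion genes (right, Cxcr5 to Icam2) in B cells, T cells, NK cells and macrophages, from UMIs summed over 1 library, with no error bars. Pax5, Ebf1, Spib and Pou2af1 lie far above the other 3 classes, while Ets1 and S1pr1 lie close to T cells.

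Genes of later and earlier stages of the lineage differed in level. The plasma cell list summed to 578 CPM in B cells, of which Mzb1 was 334 CPM, and to 483 CPM in type II pneumocytes. The immature list summed to 681 CPM in B cells and 2430.1 CPM in ciliated cells, and the germinal centre list to 75.6 CPM in B cells. Among all 19647 genes, 3492 had the 30 UMIs in B cells needed to be counted. Of 10 plasma cell genes 3 had enough UMIs to be counted. Of these 2 were at least 2-fold over every other class, against 3.38% of all genes counted. They were Mzb1 and the transcription factor gene Irf4, at 99.0 CPM against 20.1 CPM in T cells. Jchain and Derl3 had 0 UMIs among the 727247 of the class, which allows up to 4.13 CPM, and Xbp1, which expands the secretory pathway, stood at 66.0 CPM against 57.0 CPM in T cells and 327 CPM in alveolar macrophages. The marked barcodes held 31.2% of the Xbp1 UMIs, and without them it stood at 51.7 CPM. That is below the T cell level, in which the marked T cell barcodes were kept. Of 7 germinal centre genes 0 had enough UMIs to be compared, with 55 UMIs of the list in 37 barcodes. Of 10 cell cycle genes 1 could be counted and did not meet the limit, and there was 1 UMI of Mki67 and 6 of Top2a. Of 12 genes of B-1 and marginal zone cells 2 could be counted and Cr2 met the limit, while Cd5 had 4 UMIs, Spn 3 and Cd9 16. Of the 8 genes of immature B cells that were measured, Vpreb1, Igll1 and Dntt had 0 UMIs. Other members were counted more often but were not highest in B cells: Cd24a at 231 CPM (1644 CPM in ciliated cells), Vpreb3 at 245 CPM (560.1 in ciliated cells) and Ms4a4c at 194 CPM (262 in macrophages).

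Of 11 cytokine and chemokine genes 2 had enough UMIs in B cells to be counted. Ltb, a lymphotoxin gene that organises lymphoid tissue, stood at 556 CPM, near the 605 CPM of T cells, whereas Tnf and Il10 had 1 UMI each and Il6 had 3, of which 2 lay in marked barcodes. The chemokine gene Ccl4 stood at 6.88 CPM in B cells and at 3524 CPM in NK cells. Of 15 early response genes 14 were at least 2-fold lower than in macrophages and 0 higher, where 21.0% of all genes counted were lower and 8.66% higher, and the list summed to 7417 CPM against 20267 CPM. The 12 marked barcodes held 30.8% of these UMIs, and without them the B cell sum was 5849 CPM. T cells, with their marked barcodes kept, summed to 7054 CPM. Against them 1 of the 15 was higher, as were 7.86% of all genes counted, namely Jund at 1570.3 against 769.6 CPM. The marked barcodes held 80.8% of the Egr1 UMIs and 41.0% of those of Fos.

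The comparisons with T cells, NK cells and macrophages show the class from each side. In all, 512 of 6512 genes were at least 2-fold higher and 765 lower than in T cells, 482 (11.0%) higher and 714 (16.3%) lower of 4378 against NK cells, and 663 higher and 1606 lower of 7658 against macrophages. The median log2 ratio over all genes counted was -0.04 against T cells, -0.20 against NK cells and -0.10 against macrophages. The 12 genes highest over T cells were Igkc, Cd79a, Ly6d, Ebf1, Cd74, H2-Aa, H2-Eb1, H2-Ab1, Iglc2, Ms4a1, Iglc3 and Mef2c. The 12 lowest were Ccl5, Cd3g, Trbc2, Il7r, Cd3d, Trbc1, Cd3e, Cxcr6, Cd8b1, Cd28, Thy1 and S100a4. Ccl5, a chemokine of effector cells, stood 151 times higher in T cells, Il7r, the receptor for interleukin 7, 73.9 times, and S100a4 36.5 times. Cd8b1 and Thy1 had 0 UMIs in B cells, which makes them at least 68.0-fold and 66.7-fold lower.

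The genes farthest from macrophages in either direction were picked by their ratio, so their direction follows from the choice. The macrophage class held markers of other cells as well, with 3324 CPM of the 6 neutrophil genes and 1048 CPM of the 9 dendritic cell genes. The 8 lowest ratios against macrophages were those of Il1b, Fcer1g, S100a9, S100a8, Alox5ap, Cxcl2, Ccr2 and Ccl4, of which S100a8 and S100a9 are on the neutrophil list. Il1b, which encodes an inflammatory cytokine, had 3 UMIs in B cells and stood at 1968 CPM in macrophages, a ratio of 477. Fcer1g, the signalling chain of activating Fc receptors, stood 210.0 times higher in macrophages and S100a9 155 times. The 8 highest were Igkc, Ebf1, Cd79a, Ms4a1, Cd79b, Iglc1, Ighd and Fcmr, with Ebf1 at 149.6 times.

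Markers of other cell types were counted over the whole list in each case. The 12 T cell genes summed to 59 UMIs in 14 B cell barcodes (81.1 CPM against 5108 CPM in T cells), with 25 of the UMIs in 1 barcode and Cd4 and Cd8a at 0. The 10 NK cell genes gave 15 UMIs (20.6 CPM) with 5 genes at 0. The 12 macrophage genes gave 556 CPM, of which Lyz2 was 444 CPM, and 1 barcode held 81 of the 404 UMIs. The 6 neutrophil genes gave 20.6 CPM and the 5 erythroid genes 72.9 CPM, with 46 of 53 erythroid UMIs in 1 barcode. Of the 9 dendritic cell genes 6 were at 0, and the list gave 83.9 CPM, of which Bst2, also made by many other cells, was 79.8 CPM. Their part in the values above was not tested.

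The same genes were measured in the lung multiplet library, whose barcodes are not among the 190. Of its 4729 barcodes 205 (4.33%, 3.77 to 4.95) had a UMI of each of Cd79a, Cd79b and Ms4a1. These barcodes had a median of 16180.0 UMIs against 11839 in the other multiplets. Leaving out the 3 genes that chose the barcodes, 22 of 22 leading genes of the singlet class were at least 2-fold higher in the 205 than in the other multiplets, where 7.33% of 15625 genes were. Their ratios ran from 5.58 (Pgap1) to 122 (Iglc1) with a median of 44.2, beside a median of 0.924 over all genes counted. Pax5 stood 90.1 times higher (68.2 to 121), Fcmr 84.7 times, Ighd 71.1 times and Bank1 48.9 times. With at least 2 UMIs of each marker required, the ratios were lower, at 47.9 for Pax5, 39.8 for Fcmr, 36.8 for Ighd and 34.4 for Bank1. The barcodes that this limit drops still had all 3 markers, and their part in the lower ratios was not tested. In the 205 barcodes Igkc stood at 1663 CPM against 8796 CPM in B cell singlets and Ebf1 at 335 against 1767 CPM.

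**Figure D5:**
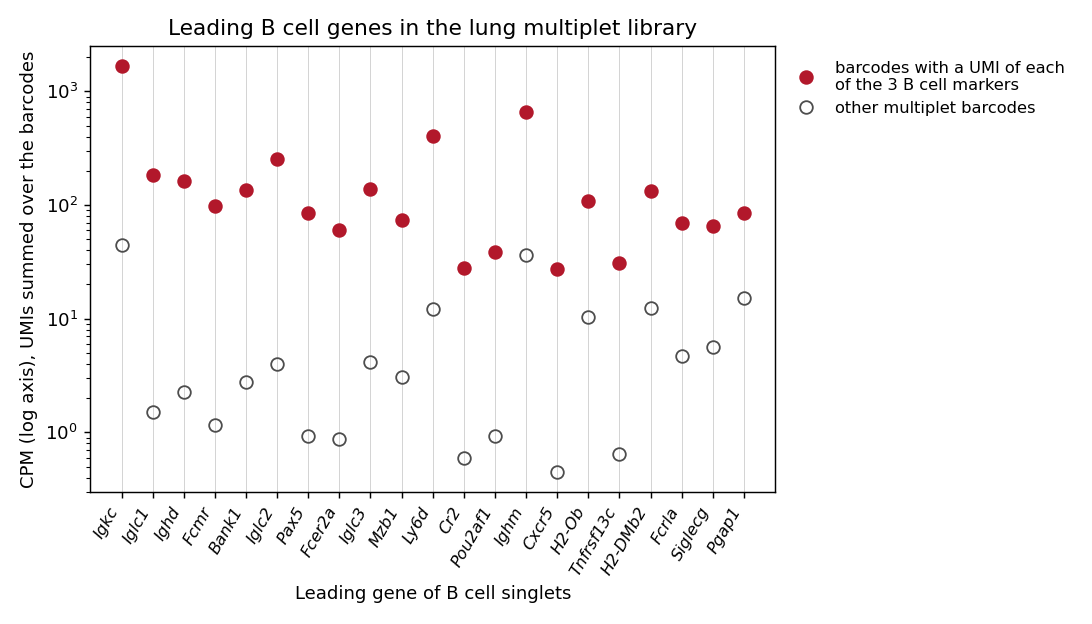
CPM (log axis) of 21 of the 22 leading B cell genes in the 205 lung multiplet barcodes with a UMI of Cd79a, Cd79b and Ms4a1 each (filled) and in the other barcodes of that library (open), from summed UMIs of 1 library, with no error bars. Filled points lie above open points for every gene shown, by 5.58 times (Pgap1) to 122 times (Iglc1).

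The receptor rules gave the following calls in the 205 multiplets. IgM was called in 201 and IgA in 0. Kappa was called in 105 (51.2%), lambda in 6 (2.93%), both in 89 (43.4%) and 5 had no light chain call. A multiplet may hold several B cells, so a barcode with both chains need not be 1 cell.

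Genes of other immune cells were higher in the multiplets with B cell markers and genes of structural cells were lower. All 12 T cell genes were at least 2-fold higher, against 7.33% of all genes counted, with a summed ratio of 2.56 (2.45 to 2.69). So were 8 of 10 NK cell genes (2.58), 6 of 6 neutrophil genes (2.44) and 7 of 9 dendritic cell genes (1.97). The MHC class II list was higher in 11 of 12 genes (3.46). Of 12 macrophage genes 6 were higher and 1 lower, but the list's summed ratio was 0.692, since Lyz2, also a type II pneumocyte gene, stood at 0.493. The complement genes C1qa (6.18 times), C1qb (5.72) and C1qc (5.70), made by interstitial macrophages, were higher, while the alveolar macrophage list stood at 0.901 with 0 of 8 genes past the limit. Cd3d was found in 29.3% of the 205 barcodes and in 7.98% of the others, and C1qa in 37.1% and 5.86%. Lower at 2-fold, as were 23.5% of all genes counted, were all 8 fibroblast genes (summed ratio 0.208), all 8 type II pneumocyte genes (0.0856), all 5 club cell genes (0.0549) and 7 of 8 endothelial genes (0.314). In singlets of the B cell class the same T cell genes summed to 81.1 CPM and stood at 486 CPM in these multiplets. Whether depth has a part in these shares was not tested.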

How the data were processed

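For each of 4 libraries the authors deposited UMI counts that had not been normalized (genes by barcodes), together with a class and a quality flag for the barcodes. Per the submitters' processing notes, reads went through Cell Ranger 4.0.0 with mm10 as the genome. The making of the classes and of the flag was not given in the sources used here. Of 8410 annotated lung singlets 6084 passed and had counts, with 56639425 UMIs over 19647 genes, and 0 of the B cell barcodes lacked the flag. The lung multiplets had 66277622 UMIs over 20147 genes.

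UMIs were summed per class and scaled to the class total to give CPM. A gene was counted with at least 30 UMIs in B cells, or in either class of a pair, and a 2-fold ratio, with no test, made it higher or lower. Against 0 UMIs the ratio is a lower bound at 3 UMIs over the class, and the share or level that a count of 0 allows is likewise that of 3 barcodes or UMIs. Intervals are exact at 95% (Poisson for sums, conditional binomial for ratios, Clopper-Pearson for shares). Named genes are the 25 that stood farthest over the next class, the 12 highest and 12 lowest against T cells and the 8 highest and 8 lowest against macrophages, ranked with 10 CPM added. The pairwise rankings needed at least 100 UMIs in either class. Gm-numbered, Rik, mitochondrial, ribosomal protein and variable or joining segment genes were left out, and members of the gene lists may be named too. A few genes that count in these lists are not reported here by name. The members and lists were chosen with earlier results of these data known. Doublets were marked with Scrublet in scanpy 1.11.5 and kept. Each choice was varied in turn (closing section). Positions come from the GENCODE annotation of GRCm38 and promoters from RefSeq. The calculations were tested on simulated data.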

Additional observations from a re-analysis of the deposited data

Results flagged for a closer look

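The lung multiplet library, outside the class of B cell singlets, held RNA of an antibody-secreting kind that the singlets almost lacked. Jchain, the joining chain of IgA and IgM, had 324 UMIs there, of which 315 lay in 1 barcode, against 9 in all lung singlets and 0 in B cell singlets. Igha, the IgA heavy chain gene, had 444 UMIs, of which 373 lay in that same barcode, against 26 in all lung singlets and 4 in B cell singlets. The barcode had 29316 UMIs, with 1877 of Igkc, 94 of Mzb1, 10 of Cd79a and 5 of Derl3, and 0 of Ighm and Ms4a1, so it was not among the 205 multiplets with the 3 B cell markers. As 1 barcode of 1 library it allows no comparison between groups.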

How the results depend on the processing

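Of 61 alternative values of the main results 37 were rated the same, 24 moved and 0 reversed. The rating of same allowed sizeable shifts. With median ratio scaling 467 genes rather than 663 were higher in B cells than in macrophages, and 584 rather than 714 lower than in NK cells. Without marked doublets 1928 rather than 1606 were lower than in macrophages. With at least 2 UMIs of each marker 143 multiplets rather than 205 were chosen. With at least 100 UMIs, which counts fewer genes, 64 genes stood 2-fold over every other class, 201 were higher and 290 lower than in T cells, 192 and 248 against NK cells, and 258 and 896 against macrophages. A 1.5-fold limit gave 207, then 1041 and 1343, 799 and 1313, and 1473 higher than in macrophages. A stricter isotype rule (5 UMIs, 80%) called IgM in 78.9% of barcodes, and a stricter light chain rule (10 UMIs, 90%) called kappa in 23.2% and both in 23.7%. Thinned to 1000 UMIs and unthinned, Cd79a was found in 87.9% and 100% of B cells, Ms4a1 in 52.6% and 89.5%, Ighd in 45.8% and 83.7% and Fcer2a in 26.8% and 61.1%. Of 240 values of single genes 211 were rated the same, 27 moved and 2 reversed. The reversed values were H2-Ab1 over macrophages, at 1.26 with barcodes weighted equally, and H2-Eb1, at 0.982 with median ratio scaling. No paired analysis was possible because each group had 1 library. The low depth of B cell barcodes limits what can be said of genes with few UMIs.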

Other observations

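The ratio of Ighm to Igkc UMIs differed between classes. For every 100 Igkc UMIs there were 26.3 Ighm UMIs in B cells (24.9 to 27.8), 28.1 in type II pneumocytes and 27.3 in ciliated cells, but 290.4 in macrophages (244 to 346) and 2478 in T cells (1282 to 5489.9). Club cells had 1 Ighm and 4 Igkc UMIs. In T cells 140 barcodes (41.9%) had an Ighm UMI, at most 6 each, and 132 of them had no UMI of Cd79a, Cd79b or Ms4a1. In macrophages 177 barcodes (62.5%) had one, 150 of them without the B cell markers. Fibroblast-1 cells differed in the light chains, with 201 of their 211 Iglc UMIs from Iglc2. The 211 UMIs of the 3 Iglc genes together were spread over 184 barcodes.

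Napsa, the napsin A protease gene known from type II pneumocytes, stood at 353 CPM in B cells, with 15.0 UMIs for every 100 of Sftpc (13.1 to 17.1). The ratio was 1.03 in type II pneumocytes, 0.852 in T cells and 27.4 in macrophages. Pecam1, a junction protein of endothelial cells, stood at 118 CPM in B cells and 54.9 CPM in T cells, while Cdh5, Cldn5, Kdr and Egfl7 had 0 UMIs in B cells. Xist had 0 UMIs in the B cells and the Y-linked gene Ddx3y stood at 144 CPM, against 123 CPM in T cells.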
